A study of Mus musculus with 12 samples.

Results

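The Notch receptors Notch1, Notch2, Notch3 and Notch4, the ligands Jag1, Jag2 and Dll4, and the targets Hes1, Hey1 and Heyl were followed in mouse kidney before and after obstruction of the ureter. These 10 genes were taken by symbol from the 55471 genes of the deposited expression table, and each symbol matched a single row. All 10 had enough reads to be tested, among 18093 tested genes. The study profiled left kidneys of wild-type mice and of mice lacking Sprr2f, a small proline-rich protein of the cornified-envelope family, by RNA sequencing. Kidneys were taken at day 0 or at day 5 of unilateral ureteral obstruction, in which a clamp that does not crush the tissue closes the left ureter so that urine backs up into the kidney.

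Notch receptors are transmembrane proteins that are cut when a ligand on a neighbouring cell pulls on them, and the freed intracellular part enters the nucleus. There it joins the DNA-binding protein Rbpj and switches on genes of the Hes and Hey families, which encode transcriptional repressors. In kidney the pathway is known for its part in nephron patterning, in blood vessels and their mural cells, and in injured tubules and scarring.

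The libraries fell into 4 groups. There were 2 wild-type kidneys at day 0, 3 wild-type kidneys at day 5, 4 Sprr2f-KO kidneys at day 0 and 3 Sprr2f-KO kidneys at day 5. All mice were of the C57/BL6 strain and all samples carry the obstruction treatment label, and the age given, for the knockout mice, is 8 to 12 weeks. Whether day 0 kidneys had a sham operation, how the knockout allele was made and whether it is constitutive are not given in the sources used here. Each sample is a frozen part of a kidney with all its cell types, so fewer cells of a type and less RNA per cell cannot be told apart. The labels name separate samples without saying that they are separate animals, so p-values reflect only how far these samples lie apart, part of which may be technical.

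Library depth was even, from 16567256 to 19398882 reads assigned to genes. Sprr2f itself was at 26.9 to 58.8 CPM (reads of a gene per 1000000 reads of its library) in wild-type kidneys at day 5, at 0 to 4.07 CPM in knockout kidneys at day 5, and at 0 to 0.262 CPM in every day 0 library. Although the series describes female mice, 7 of the 12 libraries carried Y-linked transcripts (summed level 112 to 170 CPM, with Xist at 0.329 to 2.11 CPM). The other 5 carried Xist at 481 to 893 CPM, with Y-linked transcripts at 0.281 to 0.979 CPM. All 4 knockout day 0 libraries were of the Y-linked kind, against 1 of 2 wild-type day 0, 1 of 3 wild-type day 5 and 1 of 3 knockout day 5 libraries, so this difference moves with genotype and day and is taken up beside the results it touches. The factors of TMM scaling, which corrects library size for a few very abundant genes, also differed by day, at 0.795 to 0.897 at day 0 and 1.13 to 1.19 at day 5. Levels below are CPM divided by that factor, called scaled CPM, and levels compared between genes are also divided by the exon length in kilobases.

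The 4 receptor genes are shown first by the sequence just upstream of their start sites. Notch1, Notch2 and Notch3 rose in both genotypes, and Notch4 was called higher in knockout but not in wild type. Any link between these changes and the sequences was not tested. Each sequence runs 5′ to 3′ on the strand of the gene, comes from RefSeq on build GRCm38.p6 and was trimmed of annotated exon bases. The stretches are chr2:26503825-26504072 on the minus strand for Notch1, chr3:98013288-98013526 on the plus strand for Notch2, chr17:32166891-32167140 on the minus strand for Notch3 and chr17:34564045-34564267 on the plus strand for Notch4. The Notch1 stretch precedes the RefSeq start and lies inside the longer span that GENCODE M21 gives the gene. Capitals mark the GC box, GGGCGG or its reverse complement CCGCCC, the letters read by Sp-family factors.
Notch1: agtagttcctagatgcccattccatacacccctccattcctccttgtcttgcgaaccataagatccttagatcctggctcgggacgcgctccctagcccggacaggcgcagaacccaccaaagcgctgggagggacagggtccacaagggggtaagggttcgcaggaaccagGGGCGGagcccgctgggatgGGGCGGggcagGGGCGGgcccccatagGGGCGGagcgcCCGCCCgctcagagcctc
Notch2: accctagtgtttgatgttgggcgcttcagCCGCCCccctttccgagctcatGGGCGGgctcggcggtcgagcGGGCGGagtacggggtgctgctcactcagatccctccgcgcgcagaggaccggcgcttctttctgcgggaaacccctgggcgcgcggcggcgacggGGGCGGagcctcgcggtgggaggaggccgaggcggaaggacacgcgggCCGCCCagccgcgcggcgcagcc
Notch3: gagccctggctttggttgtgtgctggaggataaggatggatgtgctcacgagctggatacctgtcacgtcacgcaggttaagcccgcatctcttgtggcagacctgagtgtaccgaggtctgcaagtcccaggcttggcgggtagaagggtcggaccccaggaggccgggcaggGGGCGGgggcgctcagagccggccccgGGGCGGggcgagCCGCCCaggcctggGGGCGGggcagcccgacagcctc
Notch4: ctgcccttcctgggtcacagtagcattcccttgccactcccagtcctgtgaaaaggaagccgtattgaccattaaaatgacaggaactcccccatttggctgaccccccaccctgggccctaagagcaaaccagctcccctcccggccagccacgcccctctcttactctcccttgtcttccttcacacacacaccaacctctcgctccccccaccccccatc

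The GC box occurred 5 times in the Notch1 stretch, 5 times in that of Notch2, 4 times in that of Notch3 and 0 times in that of Notch4. The Jag1 stretch, cut to 126 bases by the annotated exon, also held 0, though Jag1 rose in both genotypes. The bases G and C made up 66.1% of the Notch1 stretch, 74.1% for Notch2, 68.8% for Notch3 and 59.2% for Notch4. Their median share over untrimmed windows of 250 bases of all promoters was 52.4%. The RefSeq promoter table held 7 of the 10 genes, without Hes1, Hey1 and Heyl. In windows of 250 bases upstream of the start, 5 of those 7 held a GC box on either strand (Notch1, Notch2, Notch3, Jag2 and Dll4), against 32.7% of 32851 promoters of the same length. These windows were not trimmed of exon bases, and that of Jag2 lay wholly within annotated GENCODE M21 exon. The core letters TGGGAA or TTCCCA, read by Rbpj, were in 0 of the 7 windows and in 21.6% of all promoters. The E-box CACGTG was in 0 of 7 and in 6.02% of all, and TATAAA or TTTATA in 0 of 7 and in 12.4% of all. The GC boxes shown do not overlap each other, each motif was searched on its own, and a match is a description of the sequence only.

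At day 5 of obstruction the Notch genes were higher almost throughout. In wild-type kidneys 9 of the 10 rose and Notch4 was not called, with a median log2 change of 0.83 over the 10. In knockout kidneys all 10 rose, with a median of 0.69. All 4 knockout libraries of day 0 are Y-linked and 2 of the 3 of day 5 are not. With that pattern in the fit 7 of 10 were called in knockout, where 4885 of 18093 tested genes were called higher and 4584 lower. Y-linked libraries alone leave a lone knockout library at day 5, and their sizes of change are given further on. The test was limma on log2(scaled CPM + 0.5) with Benjamini-Hochberg adjustment over all tested genes at 0.05. Obstruction changed much of the transcriptome: 47.1% of tested genes were called in wild type (24.5% higher and 22.6% lower, median change 0.04) and 54.8% in knockout (29.4% higher and 25.4% lower, median change 0.07). The counts over the 10 genes stand beside these shares as a description, and no test of the group was made. The mitochondrial share of reads moved with day too, at 8.31% to 9.26% in the day 0 libraries and 3.89% to 4.34% in those of day 5, and its part in the changes was not tested.

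**Figure D1:**
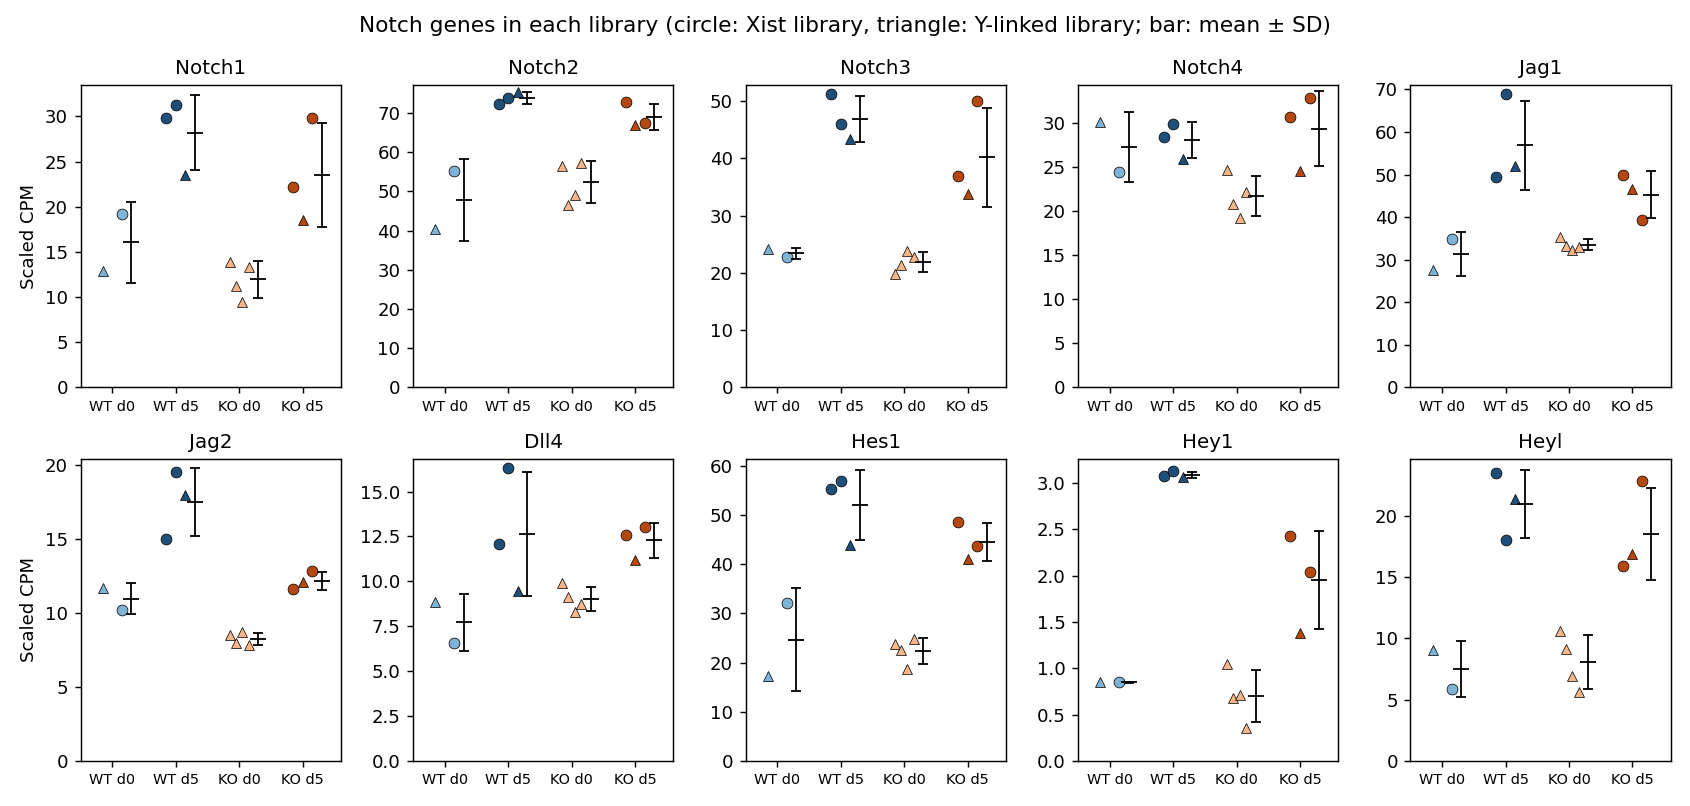
Scaled CPM (CPM divided by the TMM factor, linear axis from 0) of each of the 10 Notch genes in each of the 12 libraries, with WT for wild type, KO for Sprr2f knockout, d0 for day 0 and d5 for day 5; circles are Xist libraries, triangles are Y-linked libraries, and bars are the group mean ± SD. Day 5 libraries lie above day 0 libraries of the same genotype for 9 genes, and for Notch4 they overlap.

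Among the receptors, Notch3, known for its part in vascular smooth muscle and pericytes, had the largest estimated rise in wild type. Notch3 (ENSMUSG00000038146, chr17:32120820-32166852) was at 24.1 and 22.7 scaled CPM in the wild-type day 0 kidneys and at 51.3, 46.0 and 43.3 in those at day 5. In knockout kidneys Notch3 was at 19.7, 21.3, 23.9 and 22.7 at day 0 and at 36.9, 33.7 and 50.0 at day 5. Every day 5 library was above every day 0 library, in both genotypes. The log2 change of Notch3 was 0.98 ± 0.15 (SE, adjusted p = 0.000146) in wild type and 0.84 ± 0.12 (adjusted p = 9.43e-05) in knockout.

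Notch1, a receptor found in many epithelia and in endothelium, rose by about as much but with more spread. Notch1 (ENSMUSG00000026923, chr2:26457903-26516663) was at 12.9 and 19.2 scaled CPM at day 0 and at 29.8, 31.3 and 23.5 at day 5 in wild type. Knockout kidneys had Notch1 at 13.9, 11.2, 9.40 and 13.3 at day 0 and at 22.2, 18.5 and 29.9 at day 5. The groups did not overlap by day within a genotype. For Notch1 the log2 change was 0.81 ± 0.23 (adjusted p = 0.0109) in wild type and 0.93 ± 0.19 (adjusted p = 0.00117) in knockout. With the sex-chromosome pattern in the fit the knockout change of Notch1 was 0.63 (adjusted p = 0.00529). The wild-type day 0 libraries stood 1 on each side of the sex-chromosome pattern, and without wild-type day 0 replicate 1, the lower and Y-linked one, the wild-type change was 0.53 with adjusted p = 0.141.

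Notch2, the receptor needed for proximal nephron formation, was the most abundant of the 4 by length and rose least of the receptors called in wild type. Notch2 (ENSMUSG00000027878, chr3:98013527-98150361) was at 40.3 and 55.2 scaled CPM at day 0 and at 72.5, 73.9 and 75.3 at day 5 in wild type. In knockout it was at 56.6, 46.5, 49.1 and 57.3 at day 0 and at 72.8, 66.9 and 67.4 at day 5. By limma, Notch2 changed on the log2 scale by 0.64 ± 0.13 (adjusted p = 0.00114) in wild type and 0.40 ± 0.11 (adjusted p = 0.00662) in knockout. Day 5 values in wild type lay within a narrow range, while the pair at day 0 was apart: without wild-type day 0 replicate 1 the wild-type change was 0.41, still called.

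Notch4, whose expression is largely endothelial, gave the exception. Notch4 (ENSMUSG00000015468, chr17:34564268-34588503) was at 30.1 and 24.5 scaled CPM in wild type at day 0 and at 28.4, 29.9 and 25.9 at day 5. All 3 day 5 values fell between the pair from day 0. In knockout Notch4 was at 24.7, 20.8, 19.2 and 22.1 at day 0 and at 30.6, 24.6 and 32.8 at day 5, where the lowest day 5 library was just under the highest day 0 library. The log2 change of Notch4 was 0.04 ± 0.15 in wild type (adjusted p = 0.826, 95% interval -0.27 to 0.36) and 0.42 ± 0.12 in knockout (adjusted p = 0.0104). The difference between these changes, 0.38 ± 0.19, did not pass its own test (limma interaction, adjusted p = 0.679), so the genotypes were not shown to differ. The knockout call was lost with the sex-chromosome pattern in the fit (0.35, adjusted p = 0.0502), and in Y-linked libraries alone, 1 of them at day 5, the change was 0.19. The wild-type value depends on scaling: with library size alone, which raises the median change of all tested genes from 0.04 to 0.40, Notch4 was at 0.46 with adjusted p = 0.0220, close to that shifted median.

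The make-up of receptor RNA was compared between the days as well. Over exon length, the 4 receptors summed to 11.8 ± 0.679 scaled CPM per kb (SD, n = 2) at day 0 and 18.1 ± 0.790 (n = 3) at day 5 in wild type, and to 11.1 ± 0.778 (n = 4) and 16.7 ± 1.94 (n = 3) in knockout. Notch2 gave the largest mean share in every group, from 37.2% to 43.7%. The Notch4 share went from 28.8% ± 5.80 to 19.2% ± 0.795 in wild type and from 24.2% ± 1.61 to 21.8% ± 1.03 in knockout. The Notch3 share went from 24.5% ± 2.41 to 32.0% ± 1.72 in wild type and from 24.5% ± 3.03 to 29.6% ± 3.15 in knockout. Library ranges of the Notch4 share did not overlap by day in wild type (24.7% to 32.9% against 18.7% to 20.1%) and met in knockout (22.6% to 26.1% against 20.7% to 22.8%). No test was made of these shares.

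Among the ligands, Jag1, the ligand mutated in Alagille syndrome and present in tubules and vessels, was the most abundant. Jag1 (ENSMUSG00000027276, chr2:137081456-137116644) was at 27.6 and 34.9 scaled CPM at day 0 and at 49.5, 68.9 and 52.1 at day 5 in wild type. Knockout kidneys had Jag1 at 35.3, 33.3, 32.3 and 33.0 at day 0 and at 50.0, 46.6 and 39.2 at day 5. Day 5 exceeded day 0 in each genotype without overlap. Jag1 thus rose on the log2 scale by 0.85 ± 0.15 (adjusted p = 0.000473) in wild type and 0.42 ± 0.12 (adjusted p = 0.0118) in knockout. The difference of -0.42 ± 0.19 had an unadjusted p of 0.0492 and an adjusted p of 0.656, the interaction with the smallest unadjusted p among the 10 genes and not called. The knockout call of Jag1 was lost with the sex-chromosome pattern in the fit (0.34, adjusted p = 0.0572).

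Jag2, a ligand of the same Serrate-related class, rose by a similar factor. Jag2 (ENSMUSG00000002799, chr12:112907819-112929776) was at 11.7 and 10.2 scaled CPM at day 0 and at 14.98, 19.5 and 18.0 at day 5 in wild type. In knockout it was at 8.53, 7.97, 8.69 and 7.80 at day 0 and at 11.6, 12.1 and 12.8 at day 5. The 4 groups hardly met: knockout day 0 was lowest, and knockout day 5 overlapped only the upper wild-type day 0 library. On the log2 scale Jag2 rose by 0.65 ± 0.14 (adjusted p = 0.00175) in wild type and 0.53 ± 0.11 (adjusted p = 0.00159) in knockout.

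Dll4, a Delta-class ligand known from arterial and sprouting endothelium, had the weakest support of the genes called. Dll4 (ENSMUSG00000027314, chr2:119325784-119335962) was at 8.84 and 6.59 scaled CPM at day 0 and at 12.1, 16.3 and 9.46 at day 5 in wild type. Knockout values of Dll4 were 9.89, 9.11, 8.30 and 8.75 at day 0 and 12.6, 11.2 and 13.1 at day 5. The log2 change of Dll4 was 0.66 ± 0.20 (adjusted p = 0.0163) in wild type and 0.43 ± 0.17 (adjusted p = 0.0462) in knockout. In knockout Dll4 lost its call with the sex-chromosome pattern in the fit, without any of the 4 knockout day 0 libraries, and in further alternatives. Where no group was left with a lone library, the change in those fits was still at 0.32 to 0.45. In wild type, Dll4 was at 0.46 without day 0 replicate 2 (adjusted p = 0.165) and at 0.46 without day 5 replicate 2 (adjusted p = 0.0598). Within the Y-linked libraries alone, a lone wild-type library at each day, the change of Dll4 was 0.09, and within the Xist libraries alone, 1 at day 0 and 2 at day 5, it was 1.06.

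Of the RNA of these 3 ligands per exon length, Jag1 made up the largest part in every group, from 59.9% to 62.8% on average. Dll1, another Delta-class ligand given with the pathway lists below, is not in these shares or sums. The Dll4 share lay between 20.9% and 25.2%, and that of Jag2 between 12.8% and 17.6%. The 3 ligands summed to 8.94 ± 0.328 scaled CPM per kb at day 0 and 15.5 ± 2.88 at day 5 in wild type, and to 9.27 ± 0.404 and 12.7 ± 0.783 in knockout. The summed RNA of these 3 ligands thus differed by day while the shares moved little.

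In the fit of all libraries without the sex-chromosome pattern, the 3 targets had the largest estimated changes of the 10 in each genotype. With that pattern in the fit, knockout Hes1 (0.69) was below Notch3 (0.74). Without wild-type day 0 replicate 1, which leaves a lone library in that group, wild-type Hes1 (0.68) was below Notch3 (1.02), Dll4 (0.85) and Jag2 (0.74). Hes1, a basic helix-loop-helix repressor and the classical Notch target, was the most abundant Notch gene by length. Hes1 (ENSMUSG00000022528, chr16:30064384-30067796) was at 17.3 and 32.0 scaled CPM at day 0 and at 55.3, 57.0 and 43.8 at day 5 in wild type. In knockout Hes1 was at 23.7, 22.5, 18.7 and 24.8 at day 0 and at 48.7, 41.0 and 43.6 at day 5. The days did not overlap, though the wild-type day 0 pair lay far apart. Hes1 rose on the log2 scale by 1.12 ± 0.21 (adjusted p = 0.000799) in wild type and 0.98 ± 0.18 (adjusted p = 0.000474) in knockout. With the sex-chromosome pattern in the fit the knockout change of Hes1 was 0.69 (adjusted p = 0.00146). Without wild-type day 0 replicate 1 the wild-type change was 0.68, still called.

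Heyl is a Hey-family repressor known from vascular smooth muscle. Heyl (ENSMUSG00000032744, chr4:123233556-123249875) was at 9.08 and 5.86 scaled CPM at day 0 and at 23.5, 18.0 and 21.3 at day 5 in wild type. In knockout Heyl was at 10.6, 9.11, 6.94 and 5.60 at day 0 and at 15.9, 16.9 and 22.8 at day 5. Every day 5 library exceeded every day 0 library. The rise of Heyl on the log2 scale was 1.45 ± 0.26 (adjusted p = 0.000508) in wild type and 1.17 ± 0.22 (adjusted p = 0.000534) in knockout, and the ratio of mean scaled CPM was 2.80 and 2.30.

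Hey1, the Hey-family repressor known from arterial endothelium, was scarce, with 6 to 17 reads a library at day 0 and 28 to 70 at day 5. Hey1 (ENSMUSG00000040289, chr3:8663359-8667256) was at 0.847 and 0.846 scaled CPM at day 0 and at 3.07, 3.12 and 3.07 at day 5 in wild type. Knockout kidneys had Hey1 at 1.05, 0.683, 0.713 and 0.357 at day 0 and at 2.42, 1.38 and 2.04 at day 5. The log2 change of Hey1 was 1.41 ± 0.26 (adjusted p = 0.000578) in wild type and 1.04 ± 0.21 (adjusted p = 0.00124) in knockout. On the log2(value + 0.5) scale the change of so low a gene is understated, and the ratio of mean scaled CPM was 3.65 in wild type and 2.78 in knockout, above that of Heyl in each.

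**Figure D2:**
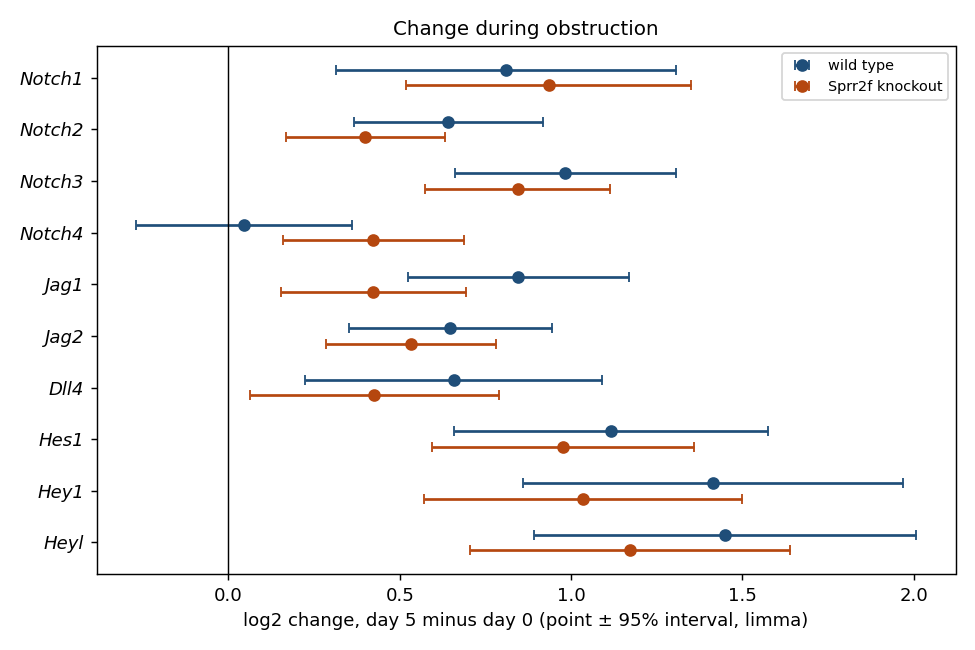
Log2 change from day 0 to day 5 of each of the 10 Notch genes in wild-type and knockout kidneys, with bars for the 95% interval from limma. All wild-type intervals but that of Notch4 lie above 0, and all knockout intervals lie above 0.

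By exon length, the order of the 10 genes was much the same in the 4 groups. Hes1 was the highest, at 12.1 ± 5.11 scaled CPM per kb in wild type at day 0 and 25.6 ± 3.53 at day 5, followed by Jag1 and then Notch2 in all 4 groups. By group mean Notch1 was next to lowest and Hey1 lowest in all 4 groups, Hey1 at 0.259 per kb in wild type at day 0 and 0.946 at day 5. The middle of the order moved: in wild type Notch4 was in place 4 at day 0 (3.38 ± 0.492 per kb) and Notch3 was in place 4 at day 5 (5.79 ± 0.4998). Heyl went from place 8 (1.46 ± 0.445 per kb) to place 5 (4.10 ± 0.542) in wild type. Several neighbours could not be ordered by their library ranges. Among them were Jag1 and Notch2 in wild type at day 0 and in knockout at day 5. Heyl and Notch4 in wild type at day 5 and Notch3 and Notch4 in knockout at day 0 were others. The range of Notch1 also met that of Heyl in wild type at day 0 and that of Jag2 at day 5 in both genotypes.

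**Figure D3:**
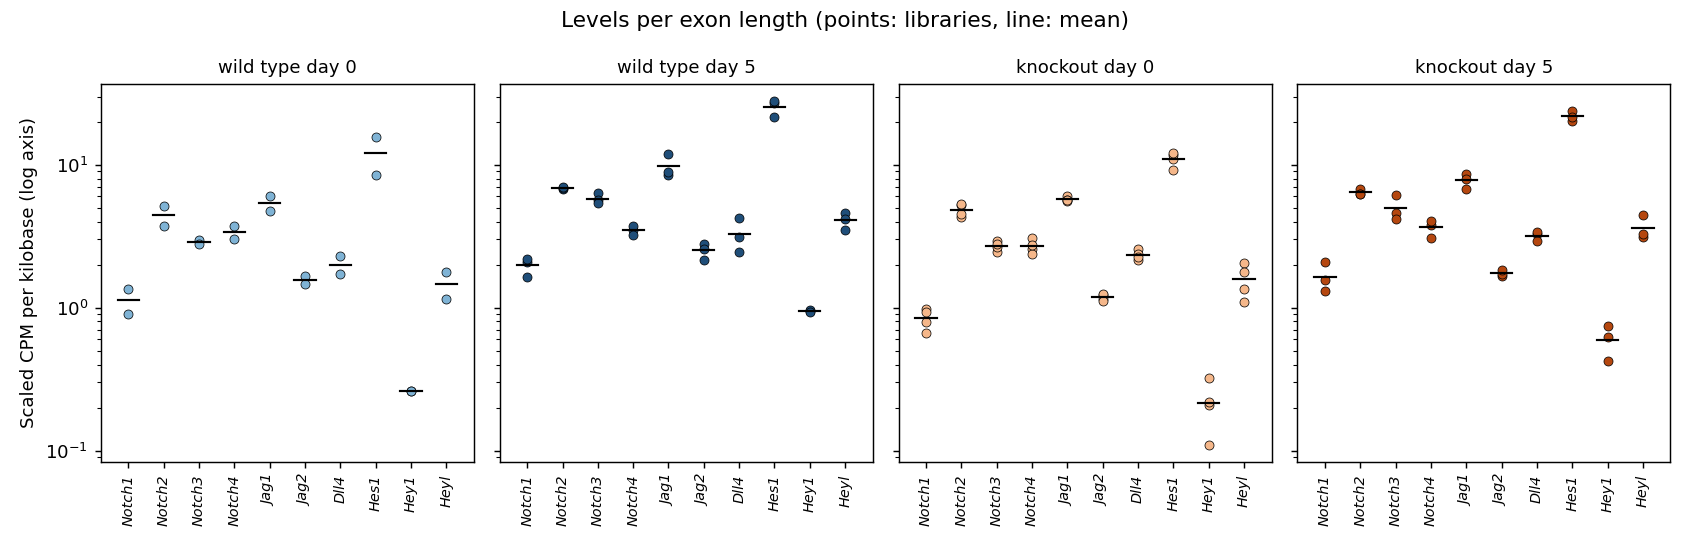
Scaled CPM per kb of exon (log axis) of the 10 Notch genes in the 4 groups, with points for libraries and lines for group means. Hes1, Jag1 and Notch2 hold the top of the order and Hey1 the bottom in each group.

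Loss of Sprr2f left no Notch gene called at either day. At day 0, 0 of the 10 were called against 0.0166% of tested genes (3 genes), and 2 of the 10 had an unadjusted p under 0.05 (Jag2 and Notch4), against 15% of all tested genes, with a median difference of -0.09. At day 5, 0 of the 10 were called against 0% of tested genes, and 3 of the 10 had an unadjusted p under 0.05 (Jag1, Jag2 and Hey1), against 5.67% of all tested genes, with a median difference of -0.23. For the interaction of genotype and day, 0 of 10 were called against 0.00553% of tested genes (1 gene), with 1 unadjusted p under 0.05 (Jag1), against 7.59% of all tested genes. The count was also 0 for each of these 3 comparisons by edgeR's quasi-likelihood test, DESeq2 and limma-voom on the recovered reads. Over all genes edgeR called 3, 0 and 1 and limma-voom 2, 0 and 1, while DESeq2 called 375 at day 0 (2.07%), 40 at day 5 (0.221%) and 37 for the interaction (0.204%). The count over all genes also rested on single libraries. Without wild-type day 0 replicate 1 it was 638 at day 0 (3.37%) and 107 for the interaction (0.565%), and without knockout day 5 replicate 2 it was 35 at day 0, 23 at day 5 and 15 for the interaction, with 0 of the 10 Notch genes called each time. Both comparisons by genotype and both by day draw on the same 4 groups, so their values are not independent of each other.

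Jag2 had the smallest p of the 10 genes by genotype at both days. Its 2 wild-type day 0 libraries (10.2 and 11.7 scaled CPM) lay above all 4 knockout libraries of that day (7.80 to 8.69), and its 3 wild-type day 5 libraries (14.98 to 19.5) lay above all 3 knockout libraries (11.6 to 12.8). The log2 difference, knockout minus wild type, was -0.39 ± 0.13 at day 0 (unadjusted p = 0.0110, adjusted p = 0.207) and -0.50 ± 0.12 at day 5 (unadjusted p = 0.00137, adjusted p = 0.605). Averaged over both days, a comparison added after the values were seen, Jag2 was at -0.44 ± 0.09 (unadjusted p = 0.000283, adjusted p = 0.107), where 0.0111% of tested genes were called. With the sex-chromosome pattern in the fit, the averaged Jag2 difference was -0.46 with adjusted p = 0.0623. Jag2 was thus lower in every knockout library than in every wild-type library of the same day, by an amount that did not pass correction over all genes.

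Hey1 at day 5 was at 1.38 to 2.42 scaled CPM in knockout and 3.07 to 3.12 in wild type, without overlap, and its log2 difference was -0.57 ± 0.23 (adjusted p = 0.855). Jag1 at day 5 differed by -0.32 ± 0.13 (adjusted p = 0.867), and its libraries overlapped. Notch4 at day 0 differed by -0.32 ± 0.14 (adjusted p = 0.301), and its libraries overlapped as well. For the other genes the 95% intervals of the genotype difference held 0 at both days. They reached from -0.87 to 0.07 for Notch1 at day 0 and from -0.12 to 0.41 for Notch2 at day 0, so differences of that size were not resolved with 2 wild-type libraries at day 0.

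**Figure D4:**
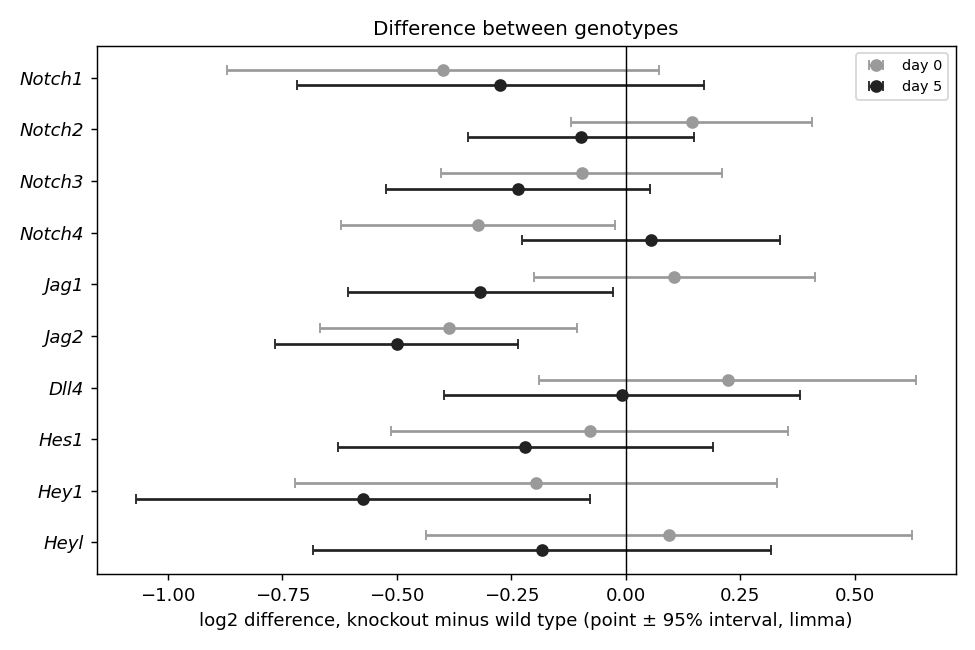
Log2 difference, knockout minus wild type, of each of the 10 Notch genes at day 0 and at day 5, with bars for the 95% interval from limma. Jag2 lies below 0 at both days, and none of the 10 passed correction over all tested genes.

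The sex-chromosome pattern touched some of these values. When it was added to the fit, 7.94% of tested genes were called for it, and 1 Notch gene was among them: Hes1, lower in Y-linked libraries by a log2 difference of -0.43 ± 0.12 (adjusted p = 0.0465). Notch1 differed by -0.46 ± 0.13 with adjusted p = 0.0517. With this term all 9 wild-type calls remained, where 4799 of 18093 tested genes were called higher and 4563 lower. In knockout 7 of the 10 were called, where 4885 tested genes were called higher and 4584 lower. The 3 not called were Notch4 (0.35, adjusted p = 0.0502), Jag1 (0.34, adjusted p = 0.0572) and Dll4 (0.32, adjusted p = 0.181). Among Y-linked libraries alone, with a lone wild-type library at each day, the wild-type log2 change was 1.31 for Hes1, 0.83 for Notch3 and 0.90 for Jag1. Among Xist libraries alone it was 0.82 for Hes1, 1.10 for Notch3 and 0.75 for Jag1. The knockout groups hold no Xist library at day 0, so obstruction in knockout cannot be compared within that kind.

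The rest of the pathway held genes that rose and genes that fell. Of 67 further genes in 7 lists, 63 were tested. In wild type 28 were higher (44.4%, against 24.5% of all tested genes), 9 lower (14.3%, against 22.6%) and 26 not called. In knockout 35 were higher (55.6%, against 29.4%), 12 lower (19%, against 25.4%) and 16 not called. These shares over all genes are also the background for each list that follows. By genotype at either day and for the interaction, 0 of the 63 were called by limma, and 16, 0 and 7 of them had an unadjusted p under 0.05 at day 0, at day 5 and for the interaction (25.4%, 0% and 11.1%, against 15%, 5.67% and 7.59% of all tested genes).

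Of the other ligands and ligand-like proteins, 4 of 6 tested rose in wild type and 3 of 6 in knockout, with 0 lower (median 0.55 and 0.56). The microfibril proteins Mfap5 and Mfap2, which bind Notch and Jagged, rose most, Mfap5 by 3.54 and Mfap2 by 2.22 on the log2 scale in wild type. Egfl7, a secreted endothelial protein, rose by 0.50 and Dll1, a Delta-class ligand, by 0.60 in wild type. In knockout Mfap5 rose by 2.83, Mfap2 by 2.23 and Egfl7 by 0.42, and Dll1 was at 0.06, not called. Dll3 and Dner had too few reads to be tested.

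The proteases and the secretase subunits that cut ligand and receptor were split, with 3 of 9 higher and 3 lower in wild type and 4 higher and 4 lower in knockout (median -0.04 and -0.20). Adam10, the protease of ligand-dependent cleavage, rose by 0.78 in wild type and 0.57 in knockout. Aph1c, a subunit of gamma-secretase, changed by -0.997 and -1.05, and its relative Aph1a by -0.34 and -0.42, all called. Adam17 rose by 0.27 and 0.40.

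Receptor glycosylation enzymes were higher for 3 of 8 and lower for 1 of 8 in wild type, and higher for 6 and lower for 1 in knockout (median 0.27 and 0.36). The 3 Fringe enzymes, which extend O-fucose on receptors and so change ligand preference, went different ways. Lfng rose by 0.99 in wild type and 0.95 in knockout and Mfng by 0.91 and 0.70, while Rfng changed by -0.90 and -0.92. Gxylt2, a xylosyltransferase, rose by 2.71 and 2.75.

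The ubiquitin ligases and partners of ligand endocytosis were higher for 3 of 6 in wild type and 4 of 6 in knockout, with 0 lower (median 0.46 and 0.46). Neurl1a rose by 1.88 in wild type and 2.70 in knockout, Neurl3 by 1.72 and 1.26 and Neurl1b by 0.72 and 0.67. These 3 are Neuralized-family ligases. Mib2, of the Mind bomb family, rose by 0.25 in knockout and was at 0.19 in wild type, where it was not called.

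In the nuclear complex, 5 of 12 were higher and 2 lower in wild type, and 8 higher and 2 lower in knockout (median 0.10 and 0.33). Rbpj, the DNA-binding partner of cut Notch, rose by 0.68 in wild type and 0.75 in knockout, and the coactivator Maml1 by 0.39 and 0.41. Kat2b, a histone acetyltransferase, changed by -0.46 and -0.73. Snw1, a splicing factor and transcriptional partner, changed by -0.42 in wild type and was at -0.01 in knockout, not called there.

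Inhibitors and turnover factors were higher for 7 of 12 and lower for 1 of 12 in each genotype (median 0.55 and 0.42). Numbl, an endocytic adaptor that opposes Notch, rose by 1.92 in wild type and 1.61 in knockout. Of the Deltex-family ligases, Dtx3l rose by 1.07 and 0.69 and Dtx3 by 0.58 and 0.62, while Dtx1 was not called in either genotype (0.52, adjusted p = 0.0596, and 0.32, adjusted p = 0.139). Itch, a ubiquitin ligase of Notch, changed by -0.63 and -0.25.

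Targets outside the 10 genes were mixed, with 3 of 10 tested higher and 2 lower in wild type and 3 higher and 4 lower in knockout (median -0.13 and -0.12). Sox9, a progenitor and injury factor that Notch can act on, rose by 4.34 in wild type and 3.99 in knockout, and Myc by 2.75 and 2.11. Ccnd1, which encodes cyclin D1, changed by -1.04 and -0.82, and Hes6, a relative of Hes1 that opposes it, by -0.69 and -1.05. Hes3 and Hes5 had too few reads to be tested. The rise of Hes1, Hey1 and Heyl was therefore not matched by all genes listed as targets.

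**Figure D5:**
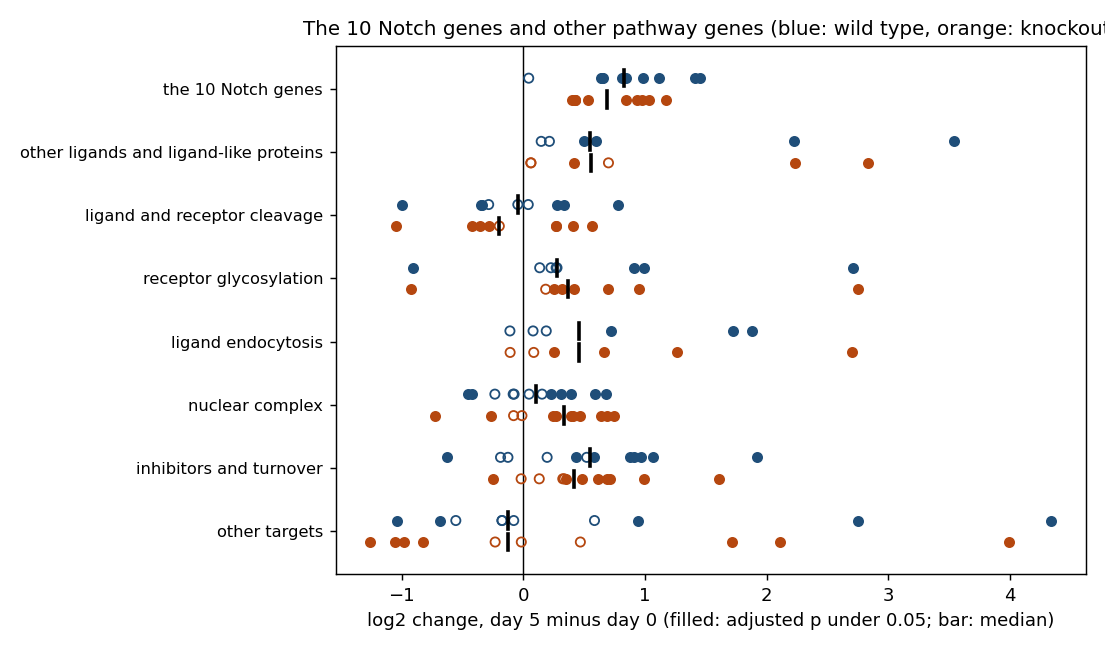
Log2 change from day 0 to day 5 of the 10 Notch genes (top row) and the 63 other pathway genes tested, by list, in wild type (blue) and in Sprr2f knockout (orange); filled points passed limma at an adjusted p of 0.05, and black bars are medians. Lists of cleavage, nuclear complex and other targets hold genes on both sides of 0.

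Markers of the cells in which these genes are known to be made were measured in the same libraries. Summed over 8 endothelial markers, the level was 287 to 355 scaled CPM at day 0 and 291 to 328 at day 5 in wild type, and 255 to 376 and 274 to 332 in knockout. In that list 1 gene rose and 1 fell in wild type, and 0 rose and 1 fell in knockout. The endothelial sums thus overlapped between days in both genotypes. Notch4 was not called in wild type but was called higher in knockout, and Dll4 and Notch1 were called higher in both. Sox17 is in this list and in the arterial list that follows.

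Arterial endothelial markers were higher for 4 of 4 in wild type (summed 42.3 to 44.4 at day 0 and 74.5 to 87.2 at day 5) and for 2 of 4 in knockout (42.3 to 48.0 and 57.6 to 76.1). Pericyte and smooth muscle markers were higher for 7 of 8 in wild type (257 to 272 and 570 to 683) and for 6 of 8 in knockout (207 to 234 and 438 to 601). These sums moved in the same direction as Notch3, Heyl and Hey1. Fibroblast markers and injured-tubule markers rose for 4 of 4 each in both genotypes, leukocyte markers for 4 of 5 in wild type and 3 of 5 in knockout, and urothelial markers for 5 of 5 and 4 of 5.

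Proximal tubule markers fell for 6 of 6 in wild type and 5 of 6 in knockout. Loop of Henle markers fell for 1 of 3 in wild type and 2 of 3 in knockout. Distal and collecting duct markers fell for 4 of 6 in each genotype, and of 5 podocyte markers 1 rose and 1 fell in each. No marker of the lists named so far was at 0 in all libraries of a group. Adipocyte markers summed to 0.372 to 143 over the 12 libraries, and 0 of 3 tested were called in either genotype. The part of these cell-type shifts in the changes of the Notch genes was not tested.

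Some reads could belong to neighbours. Of the distinct 50-base stretches of the Notch1 transcripts, 9.11% also occur in the opposite-strand genes 0610009E02Rik or Gm13568, and the share was 4.93% for Notch3, 4.33% for Dll4 and 3.76% for Notch2. Whether counting used strand is not given in the sources used here. The overlapping genes had 0 to 59 reads in any library, the most at Gm14207 beside Dll4.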

How the data were processed

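mRNA libraries of 12 left kidneys were sequenced to 50 bases, per the labels' protocols. STAR, SAMtools and HTSeq and build GRCm38.p6 are named in the submitters' processing notes, without versions or counting options. The deposited values are CPM, and each column sums to 1000000. Dividing by the smallest step gave whole reads for 100% of 665652 values (tolerance 0.001), which served the edgeR, DESeq2 and voom alternatives.

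The main test was limma 3.58.1 (R 4.3.3, trended variance) on log2(CPM divided by the TMM factor + 0.5), with TMM and filterByExpr (minimum count 10, total 15) from edgeR 4.0.16, run on the recovered reads. All 12 libraries shared 1 fit with 4 group means, and p-values were adjusted over 18093 genes. DESeq2 was 1.42.0. Alternatives changed the tool, scaling, pseudocount (0.1 or 1), filter or libraries. Exon lengths and coordinates came from GENCODE M21. The test was checked on simulated data. The genes and lists were chosen with earlier results of these data known. Pathway genes named were the 4 with the smallest wild-type p in each list, or fewer, and Dtx1 was named besides.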

Additional observations from a re-analysis of the deposited data

How the results depend on the processing

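Libraries were left out in turn, and fits that left a lone library in a group are not counted here. In the wild-type obstruction comparison this gave 8 to 9 Notch genes called, and in knockout 8 to 10. Tested genes called higher ran from 3945 of 18003 to 4680 of 18017 in wild type. In knockout they ran from 4590 of 18089 to 5267 of 17902. With only the Y-linked libraries every group except knockout day 0 is a lone library. That fit takes the lone libraries to vary like the 4 of knockout day 0, so only its sizes of change are given. Library size alone gave 10 and 10, where 8560 and 10114 of 18093 tested genes were called higher in wild type and knockout. The median changes of all tested genes were then 0.40 and 0.45 in place of 0.04 and 0.07. In no alternative did a called change turn direction. Leaving lone-library fits aside, Dll4 lost its wild-type call without day 5 replicate 2 (0.46). It also lost it with the compared groups alone (0.65, adjusted p = 0.0750). Fits that leave a lone wild-type day 0 library gave 0.46 for Dll4 (without replicate 2) and 0.53 for Notch1 (without replicate 1). In the Y-linked libraries the wild-type change was 0.83 for Notch1, 0.59 for Jag2, 1.18 for Heyl and 0.09 for Dll4. In knockout, lone-library fits again aside, Dll4 lost its call with DESeq2, limma-voom, RLE scaling in place of TMM, no filter or the sex-chromosome pattern. Its call was also lost without wild-type day 5 replicate 1, without any of the 4 knockout day 0 libraries, and without knockout day 5 replicate 1 or 3. The Dll4 change was 0.32 to 0.45 in those fits, against 0.43. Their adjusted p ran from 0.0540 (limma-voom) to 0.181 (limma with the sex-chromosome pattern). Jag1 lost its knockout call without day 5 replicate 1 (0.35, adjusted p = 0.0568) and Notch4 without day 5 replicate 3 (0.34, adjusted p = 0.0530). The Xist libraries alone give no value for obstruction in knockout, genotype at day 0 or the interaction, since knockout day 0 has none. The causes were not tested. Notch4 in wild type, never called except with library size alone, was at -0.22 in the Y-linked libraries. Knockout changes in the Y-linked libraries were smaller for Notch1 (0.63, against 0.93), Notch2 (0.37, against 0.40), Notch3 (0.62, against 0.84) and Notch4 (0.19, against 0.42). They were also smaller for Dll4 (0.31, against 0.43), Hes1 (0.88, against 0.98), Hey1 (0.67, against 1.04) and Heyl (1.06, against 1.17). The change of Jag1 was larger (0.48, against 0.42) and that of Jag2 about the same (0.53, against 0.53). For genotype and the interaction the count was 0 in every alternative run. No paired analysis was possible because the labels give the kidneys of different groups no shared number.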

Other observations

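The genes whose levels ran most like those of the Notch genes over the 12 libraries were found by Pearson's r of log2 levels among 10528 genes. These values are descriptions, since the libraries share 4 groups and any gene that differs by day scores high. Heyl ran closest with Chpf (r = 0.98) and Dtx3l (r = 0.98), the second a Deltex-family gene of the pathway lists. Dll4 ran closest with Egfl7 (r = 0.93), an endothelial gene of those lists. Notch4 ran closest with Acer2 (r = 0.93), Notch3 with Gtpbp2 (r = 0.98), Notch2 with Fam126a (r = 0.98) and Notch1 with Hoxb6 (r = 0.97). Hes1 and Notch2 shared Fgl2 among their closest 3 genes (r = 0.97 and 0.96).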
